A study of Mus musculus with 4 samples.

Results

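Chaperones of the cytosol, mitochondria and endoplasmic reticulum (ER) were followed in mouse liver as 40 listed genes, of which 37 were measured among 19087 genes in all. A listed gene counted as measured where at least 1 probe carried its symbol and no other. Of the 24 genes of the ER and its unfolded protein response all 24 were measured, and of the 16 genes of the cytosolic and mitochondrial heat shock system 13 were measured. Hsp90ab1, Hspa1b and Hsf1 had no such probe and are not analysed here. The 37 genes were represented by 71 probes, with 1 probe for 17 genes and 2 to 5 probes for the other 20.

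Each of 4 two-colour arrays set liver RNA of a male C57Bl/6 mouse aged 9 months that carried a Wrn mutation leaving the helicase domain of the protein nonfunctional, and that had received resveratrol, a plant polyphenol, against liver RNA of an untreated wild-type male of the same strain and age. Wrn is a RecQ helicase whose human counterpart is mutated in Werner syndrome. Each array had a mutant mouse of its own. Only 2 wild-type mice served all of them, animal 2 on arrays 1 and 3 and animal 4 on arrays 2 and 4, so the arrays are not fully independent. The correlation that limma estimated between arrays with the same wild-type animal was -0.37, and p-values measure the spread between these 4 arrays. Mutant RNA was labelled with Cy5 for arrays 1 and 2, and with Cy3 for the other pair. Genotype and treatment differed together and cannot be told apart, and the sources used here give neither dose nor duration of the resveratrol. The deposited values are ratios, so the presence of liver markers could not be checked by level.

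Heat shock proteins of the cytosol hold new or damaged proteins in a foldable state: HSP70 binds exposed hydrophobic stretches, J proteins deliver clients to it, HSP110 exchanges its nucleotide, and HSP90 completes the folding of kinases and steroid receptors. In mitochondria an HSP70 pulls imported chains inward and the HSP60 and HSP10 chaperonin folds them. In the ER, BiP and the lectin chaperones calnexin and calreticulin fold the proteins that hepatocytes secrete in large amounts, and the sensors IRE1, PERK and ATF6 raise the supply of these chaperones when unfolded protein accumulates, a programme known as the unfolded protein response.

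All values are log2 ratios in the deposited orientation. Values above 0 were read as higher in mutants, which is likely from the title of the series and the order of the channels but is not settled by the dyes. Whether the dye-swapped arrays 3 and 4 had already been turned to match the first pair is not stated. With the signs of arrays 3 and 4 turned, the ER and the heat shock genes no longer stood apart, as given beside the comparison of the groups. The SD of the log2 ratios over all probes was 0.66 to 0.90 on the 4 arrays. As deposited, the arrays had low correlations over all probes (Pearson r). Arrays with the same dye orientation stood at 0.19 (1 and 2) and 0.21 (3 and 4). Arrays with the same wild-type animal stood at -0.18 (1 and 3) and 0.11 (2 and 4), and the other pairs at 0.01 (1 and 4) and 0.03 (2 and 3). In bulk tissue, fewer cells of a type and less RNA per cell cannot be told apart.

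Promoters of several members held the sequence elements after which their stress programmes are known. RefSeq promoter sequences (GRCm38.p6, 250 bases before to 50 after an annotated start) were found for 32 of the 40 genes and are missing here for Hsp90aa1, Hsp90ab1, Hspa8, Hsf1, Hspa9, Hyou1, Manf and Atf6. The ER stress element (ERSE, CCAAT and CCACG separated by 9 bases, on either strand) was present in 8 of 21 ER genes and 0 of 11 heat shock genes, against 0.137% of 27025 genes with a promoter. The related ERSE-II (ATTGG and CCACG separated by 1 base) was found in Dnajb11 and Herpud1, against 0.0444% of all genes. The heat shock element with 2 units (GAANNTTC, which reads the same way on both strands) was present in 0 of 21 ER genes and 9 of 11 heat shock genes, against 9.04% of all genes, and a longer match of 3 units was present in Hsph1, Hspd1 and Hspe1, against 0.662% of all genes. The core of the unfolded protein response element (TGACGTGG) was found in 0 members and the amino acid response element (TGATGCAA) in Herpud1, against 0.714% and 1.03% of all genes. A match describes letters in this window and shows no binding.

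The stretches that follow show the element in 6 ER genes and 3 heat shock genes, taken from those whose element lies before an annotated start. Capitals mark the matched element, and each stretch is written 5′ to 3′ on the strand of its gene. The regions are chr2:34772000-34772068 (plus strand) for Hspa5, chr10:86705508-86705681 (minus) for Hsp90b1, chr8:84847050-84847118 (minus) for Calr, chr12:17266466-17266534 (plus) for Pdia6, chr14:118937802-118937870 (plus) for Dnajc3, chr8:94386352-94386412 (plus) for Herpud1, chr1:55088034-55088101 (plus) for Hspe1, chr5:135887777-135887854 (plus) for Hspb1 and chr17:34972228-34972285 (minus) for Hspa1a.
Hspa5: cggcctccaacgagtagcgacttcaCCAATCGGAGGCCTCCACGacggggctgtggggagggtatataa
Hsp90b1: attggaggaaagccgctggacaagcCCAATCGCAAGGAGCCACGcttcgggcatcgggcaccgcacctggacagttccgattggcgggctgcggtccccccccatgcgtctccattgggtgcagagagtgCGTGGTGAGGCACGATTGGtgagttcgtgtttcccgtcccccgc
Calr: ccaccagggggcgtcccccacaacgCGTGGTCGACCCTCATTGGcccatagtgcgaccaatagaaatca
Pdia6: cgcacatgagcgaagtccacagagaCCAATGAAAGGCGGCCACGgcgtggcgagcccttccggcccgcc
Dnajc3: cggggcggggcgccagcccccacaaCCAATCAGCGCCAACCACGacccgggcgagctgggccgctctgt
Herpud1: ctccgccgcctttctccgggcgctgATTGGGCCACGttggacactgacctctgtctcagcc
Hspe1: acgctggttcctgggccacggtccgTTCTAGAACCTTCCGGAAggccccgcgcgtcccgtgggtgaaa
Hspb1: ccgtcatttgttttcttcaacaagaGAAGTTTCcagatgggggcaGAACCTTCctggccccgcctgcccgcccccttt
Hspa1a: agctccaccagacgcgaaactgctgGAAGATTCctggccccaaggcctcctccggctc
Hsp90b1 held 2 ERSE matches, the downstream one on the opposite strand. The stretch of Hspe1, which encodes HSP10, precedes that gene and also an annotated start of Hspd1, which encodes HSP60 and is transcribed the other way. It lies inside the full annotated span of Hspd1, which has more than 1 annotated start. The same letters begin 144 bases before that start of Hspd1 and 89 bases before that of Hspe1.

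The ER genes had higher ratios than the heat shock genes on every array. The mean log2 ratio of the 24 ER genes was -0.27, 0.19, 0.35 and 0.48 on arrays 1 to 4, and that of the 13 heat shock genes was -0.44, -0.57, -0.23 and -0.38. The ER mean was thus below 0 on array 1 only, whereas the heat shock mean was below 0 on all 4 arrays. Averaged over arrays, the ER genes stood at 0.19 ± 0.33 and the heat shock genes at -0.40 ± 0.14 (SD, n = 4 arrays). The difference, ER minus heat shock genes, was 0.17, 0.76, 0.58 and 0.86 on arrays 1 to 4, or 0.59 ± 0.30. No test was run on these group means, because the genes were listed with results of these data known.

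With the signs of arrays 3 and 4 turned, the ER mean became -0.23 ± 0.29 and the heat shock mean -0.10 ± 0.47, and the difference was -0.13 ± 0.73, above 0 on 2 of 4 arrays. A slow spatial trend held 12.2% to 34.1% of the variance of an array over all probes. With that trend subtracted, the ER mean was 0.20 ± 0.31, the heat shock mean -0.40 ± 0.13 and the difference 0.61 ± 0.31 (SD, n = 4 arrays).

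**Figure D1:**
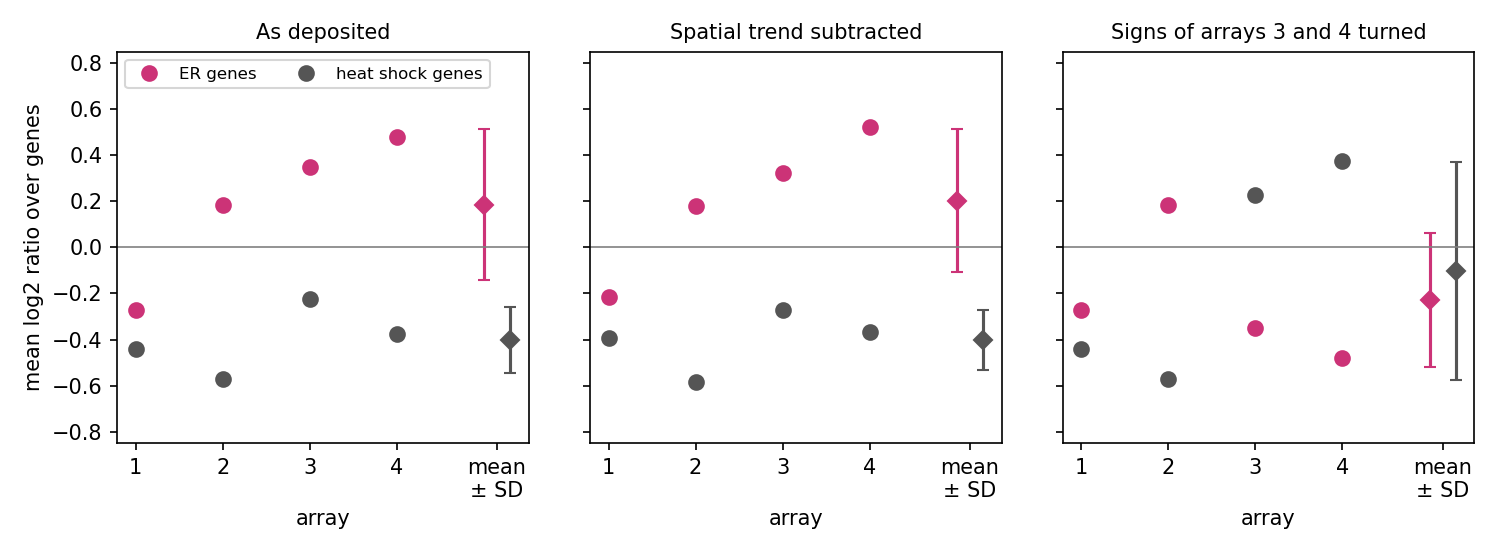
Mean log2 ratio over the 24 ER genes (magenta) and the 13 heat shock genes (grey) on each array, with the mean and SD over the 4 arrays as diamonds with bars, under 3 treatments of the values. ER genes lie above heat shock genes on all 4 arrays as deposited and with the spatial trend subtracted, and on 2 of 4 arrays when arrays 3 and 4 are turned.

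Gene by gene, 0 of the 37 members passed limma's test at an adjusted p under 0.05, against 0.0786% of all genes higher and 0.168% lower. The lowest adjusted p of a member was 0.227, for Hsp90aa1. At an unadjusted p under 0.05 stood 6 ER genes above 0 (Sdf2l1, Calr, Hyou1, Pdia6, Edem1 and Atf4), against 3.1% of all genes, and 4 heat shock genes below 0 (Hsp90aa1, Hspd1, Hspb1 and Hsph1), against 3.55% of all genes. The count of 10 members, against 6.64% of all genes in either direction, became 11 without array 1 (7.5% of all genes), 3 without array 2 (4.92%), 5 without array 3 (7.05%) and 4 without array 4 (4.85%). Hsp90aa1 and Hspd1 were among the counted members with any array left out, but not with arrays 3 and 4 turned. The ER genes had a median of 0.06, the heat shock genes a median of -0.36, and all genes a median of -0.0046. Of the ER genes 15 had a mean above 0 and 9 below, and of the heat shock genes 1 had a mean above 0 and 12 below, while 9413 of all 19087 genes had a mean above 0. With arrays 3 and 4 turned, 2 of 24 ER means lay above 0 and 8 of 13 heat shock means lay below 0.

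Members with 1 sign on every array were counted in the deposited orientation only. Each of these has 2 arrays on either side of 0 when arrays 3 and 4 are turned, and other members then have 1 sign. Above 0 on all 4 arrays were 4 ER genes (Calr, Hyou1, Pdia6 and Atf4) and 0 heat shock genes, against 7.69% of all genes. Below 0 on all 4 arrays were 1 ER gene (Atf6) and 7 heat shock genes (Hsp90aa1, Hspa4, Hsph1, Hspb1, Dnajb1, Hspa9 and Hspd1), against 8.16% of all genes. The other 25 members had both signs as deposited. With arrays 3 and 4 turned, Hspa5, Hsp90b1, Dnajc3 and Ddit3 lay below 0 on all 4 arrays and Hspa1a above 0 on all 4.

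**Figure D2:**
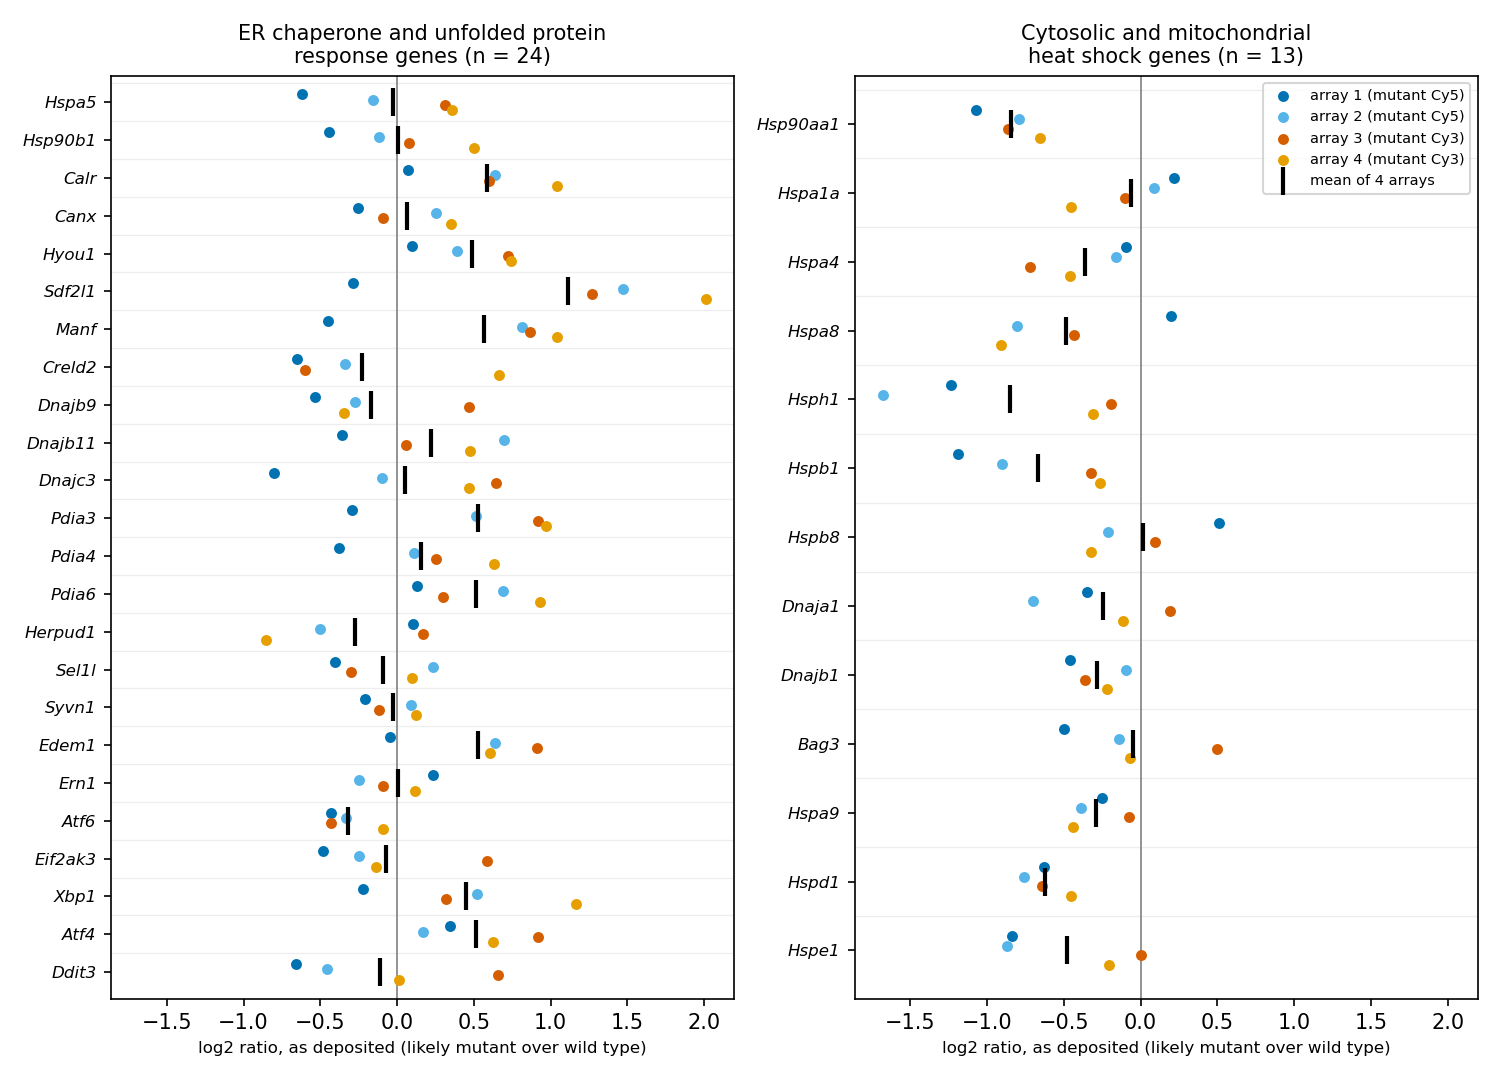
Log2 ratio of each measured member on each array (points, blue where the mutant carried Cy5 and orange where it carried Cy3), with the mean of the 4 arrays as a black bar, for ER genes (left, n = 24) and heat shock genes (right, n = 13). The ER chaperones have their lowest value on array 1, and the heat shock means lie left of 0 except that of Hspb8.

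Among the 11 ER chaperones and co-chaperones, 8 means lay above 0 and 3 below. Sdf2l1, a component of ER J protein complexes, had -0.29, 1.47, 1.27 and 2.01 on arrays 1 to 4. Its value was high on 3 arrays and below 0 on array 1, and the mean of 1.12 ± 0.99, or 2.17-fold, was the highest of the members as deposited without passing the test (adjusted p = 0.607). With arrays 3 and 4 turned it was -0.52. Calr, the soluble lectin chaperone calreticulin, had 0.07, 0.64, 0.60 and 1.04, all above 0, with a mean of 0.59 ± 0.40 (adjusted p = 0.693). Manf, a small ER-resident and secreted stress protein, had -0.45, 0.81, 0.86 and 1.04, and array 1 alone was below 0 around a mean of 0.57 ± 0.69 (adjusted p = 0.814).

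Hyou1, the ER member of the HSP110 class and a nucleotide exchange factor for BiP, had 0.10, 0.39, 0.72 and 0.74, with a mean of 0.49 ± 0.31 (adjusted p = 0.750). All of its gene-level values lay above 0, although its 2 probes disagreed. Hspa5, which encodes BiP itself, had -0.62, -0.16, 0.31 and 0.36. The arrays lay below 0 where the mutant carried Cy5 and above 0 where it carried Cy3, and the mean of -0.03 ± 0.46 was near 0 (adjusted p = 0.995).

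The remaining ER chaperones had means on both sides of 0. Hsp90b1, the HSP90 of the ER, stood at 0.00 ± 0.39, and Canx, the membrane lectin chaperone calnexin, at 0.06 ± 0.29. The BiP co-chaperones Dnajb11, Dnajc3 and Dnajb9 stood at 0.22 ± 0.47, 0.05 ± 0.65 and -0.17 ± 0.44. Creld2, an ER stress-inducible secreted protein, had its only positive value, 0.67, on array 4 and a mean of -0.23 ± 0.61 (SD, n = 4 arrays). Hspa5, Hsp90b1 and Dnajc3 lay below 0 on arrays 1 and 2 and above 0 on arrays 3 and 4. Calr and Hyou1 lay above 0 on all 4 arrays.

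The 3 protein disulfide isomerases, which form and reshuffle disulfide bonds, all had means above 0. Pdia3, the partner of calnexin and calreticulin, had -0.29, 0.51, 0.92 and 0.97, below 0 on array 1 and clearly above 0 on the others, with a mean of 0.53 ± 0.58 (adjusted p = 0.810). Pdia6 had 0.13, 0.69, 0.30 and 0.93, all above 0, with a mean of 0.51 ± 0.36 (adjusted p = 0.750). Pdia4 stood at 0.15 ± 0.42 with array 1 below 0.

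Genes of ER-associated degradation had means on both sides of 0. Edem1, a lectin that directs misfolded glycoproteins to degradation, had -0.05, 0.64, 0.91 and 0.61, with array 1 near 0 and a mean of 0.53 ± 0.41 (adjusted p = 0.750). The ubiquitin ligase gene Syvn1 and its partner Sel1l stood at -0.03 ± 0.16 and -0.09 ± 0.31. Herpud1, which encodes a membrane protein of the same ligase complex, had 0.11, -0.50, 0.17 and -0.85. Its sign went with the wild-type animal, above 0 against animal 2 and below 0 against animal 4, and its mean was -0.27 ± 0.49 (adjusted p = 0.906). Sel1l, Syvn1 and Canx had the reverse, below 0 against animal 2 and above 0 against animal 4.

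Sensor genes of the unfolded protein response lay at or below 0. Atf6, the sensor that is cleaved into a transcription factor, was below 0 on every array, from -0.43 to -0.09, with a mean of -0.32 ± 0.16 (adjusted p = 0.831). Ern1, which encodes IRE1, stood at 0.00 ± 0.22, and Eif2ak3, which encodes PERK, at -0.07 ± 0.46 with array 3 alone above 0.

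The transcription factors of the response also had means on both sides of 0. Xbp1, whose mRNA IRE1 splices, had -0.22, 0.52, 0.32 and 1.17, below 0 on array 1 only, with a mean of 0.45 ± 0.58 (adjusted p = 0.836). Spliced and unspliced Xbp1 were not told apart here. Atf4, the factor translated when PERK phosphorylates eIF2alpha, had 0.34, 0.17, 0.92 and 0.62, all above 0, with a mean of 0.51 ± 0.33 (adjusted p = 0.734). Ddit3, which encodes CHOP, the pro-apoptotic factor downstream of ATF4, had -0.66, -0.46, 0.66 and 0.01. It was below 0 where the mutant carried Cy5 and above 0 where it carried Cy3, and its mean was -0.11 ± 0.59 (adjusted p = 0.965).

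Array 1 stood below the other arrays for the ER genes. It held the lowest value in 20 of 24 ER genes, in 11 of 11 ER chaperones, and in 4 of 13 heat shock genes, against 29.5% of all genes. This count was chosen after the values had been seen. Without array 1 the ER mean was 0.34 ± 0.15 and the heat shock mean -0.39 ± 0.17, and without array 4 they were 0.09 ± 0.32 and -0.41 ± 0.17 (SD, n = 3 arrays). The ER mean therefore moved by over 1.5 times with either array, while the heat shock mean stayed between -0.46 and -0.35 with any array left out. Of the members given array by array with a mean beyond 0.3 in size, 3 moved by over 1.5 times when an array was left out. Manf stood at 0.91 and Pdia3 at 0.80 without array 1, and Xbp1 at 0.21 without array 4.

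The dye orientation ran along with the ER values. The mean over arrays with Cy3-labelled mutants lay above that over arrays with Cy5-labelled mutants in 22 of 24 ER genes and in 8 of 13 heat shock genes, against 49% of all genes. Within the Cy5 arrays the ER mean was -0.04 and the heat shock mean -0.50, and within the Cy3 arrays they were 0.42 and -0.30. As deposited, the ER genes were thus above the heat shock genes within either dye. With arrays 3 and 4 turned, ER minus heat shock genes was -0.58 and -0.86 on these arrays. When limma was fitted with a coefficient for the dye, that coefficient had an adjusted p under 0.05 in 0 of the 37 members. The count was also 0 over all 19087 genes, so it does not set the members apart. Its unadjusted p was under 0.05 in 0 of 24 ER genes and 1 of 13 heat shock genes (Hsph1), against 8.82% of all genes. The part of the dye in the values of array 1 was not tested.

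On the heat shock side, Hsp90aa1, the inducible cytosolic HSP90, had -1.07, -0.79, -0.87 and -0.66 on arrays 1 to 4. The arrays lay close together and all below 0, with a mean of -0.85 ± 0.17, or 1.80-fold lower (adjusted p = 0.227). With the spatial trend subtracted, the mean of its 1 probe was -0.67, a shift larger than that SD. With arrays 3 and 4 turned, its mean was -0.08. Hsph1, the cytosolic HSP110, had -1.24, -1.68, -0.19 and -0.31. It was far below 0 where the mutant carried Cy5 and slightly below 0 where it carried Cy3, with a mean of -0.85 ± 0.72 (adjusted p = 0.638).

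The HSP70 genes lay near or below 0. Hspa8, the constitutive HSP70, had 0.20, -0.80, -0.44 and -0.91, above 0 on array 1 only, with a mean of -0.49 ± 0.50 (adjusted p = 0.810). Hspa4, another HSP110 of the cytosol, was below 0 on every array at a mean of -0.36 ± 0.29. Hspa1a, the stress-inducible HSP70, had 0.22, 0.09, -0.10 and -0.46, with signs on both sides of 0 and a mean of -0.06 ± 0.29 (adjusted p = 0.974). Hspa1b is nearly identical to Hspa1a, so the probes of Hspa1a may read both.

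Small heat shock proteins and co-chaperones had mixed sizes. Hspb1, which keeps unfolded proteins from aggregating, had -1.19, -0.90, -0.32 and -0.27, all below 0 and lowest on the Cy5 arrays, with a mean of -0.67 ± 0.45 (adjusted p = 0.629). Hspb8 and its partner Bag3, which route aggregates to autophagy, stood at 0.02 ± 0.37 and -0.05 ± 0.41. The cytosolic J proteins Dnajb1 and Dnaja1 stood at -0.29 ± 0.16 and -0.24 ± 0.38 (SD, n = 4 arrays).

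The 3 mitochondrial chaperones all had means below 0. Hspd1, which encodes HSP60, had -0.63, -0.76, -0.64 and -0.46, in a narrow band below 0, with a mean of -0.62 ± 0.13, or 1.54-fold lower (adjusted p = 0.469). With arrays 3 and 4 turned, the mean of Hspd1 was -0.07. Hspe1, its HSP10 partner with the shared element shown above, had -0.84, -0.87, 0.00 and -0.20 and a mean of -0.48 ± 0.44 (adjusted p = 0.803). Hspa9, the mitochondrial HSP70, was below 0 on every array at a mean of -0.29 ± 0.16.

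Promoter elements and ratios can be set side by side. The 3 heat shock genes with the element of 3 units (Hsph1, Hspd1 and Hspe1) had a median ratio of -0.62, against -0.24 for the other 7 measured heat shock genes with a promoter. For the element of 2 units the medians were -0.36 for the 8 measured genes with it and -0.32 for the 2 without. The 8 ER genes with an ERSE had a median of 0.03, against 0.15 for the other 13. None of these contrasts was tested.

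Probes of a gene did not always agree. Of the 20 members with 2 or more probes, 11 had probe means on both sides of 0. Agreement could not be checked for members with 1 probe, which include Sdf2l1, Manf, Pdia3, Xbp1, Atf4, Hspa5, Ddit3, Hsp90aa1, Hsph1, Hspb1 and Hspe1. The 2 probes of Hspa8 had means of -1.01 and 0.04 and stood at -1.51 and 1.91 on array 1. Those of Hyou1 had means of -0.02 and 0.99, and the 4 of Pdia6 ran from -0.33 to 1.29. The means of the 2 probes of Calr, at 0.58 and 0.60, and of Hspd1, at -0.75 and -0.50, had the same sign. On array 1, however, the probes of Calr stood at -0.24 and 0.38. Calr, Hyou1 and Pdia6, above 0 on all 4 arrays as means over probes, each had a probe below 0 on array 1. With the median over probes in place of the mean, Pdia6 and Edem1 no longer had an unadjusted p under 0.05. With the spatial trend subtracted, Hyou1, Edem1 and Atf4 no longer did, Hspa4 and Dnajb1 did, and 5 of 37 members had the other sign.

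**Figure D3:**
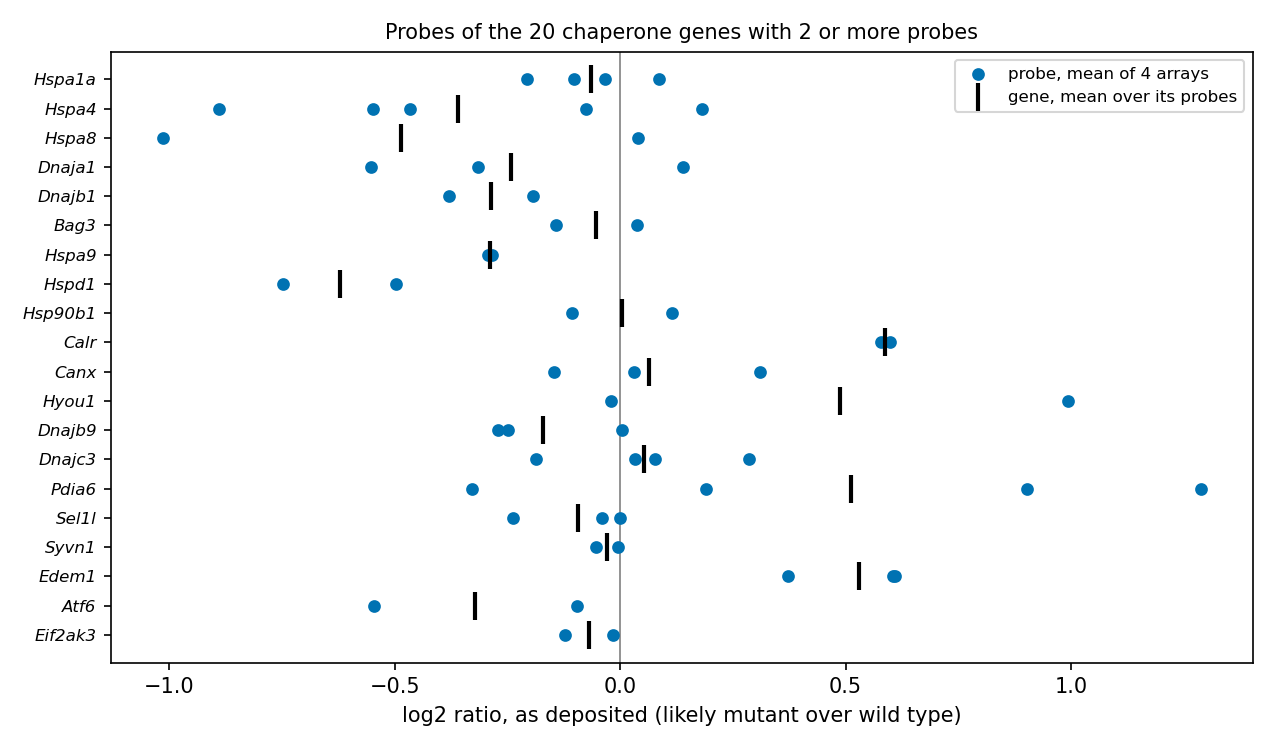
Mean log2 ratio over 4 arrays of each probe (blue points) and of the gene (black bar) for the 20 members with 2 or more probes. Calr and Hspa9 have probe means close together, whereas those of Pdia6, Hyou1, Hspa8 and Hspa4 are spread over about 1 log2 unit or more.

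Other genes of protein folding and of its stress response were read from 6 lists with 96 genes, all measured, of which 0 passed the adjusted threshold in either direction. In the list of other ER folding, translocation and degradation genes, 22 of 32 means lay above 0, against 9413 of 19087 for all genes, with a median of 0.15. Of these 32 genes 4 had an unadjusted p under 0.05, all above 0, against 3.1% of all genes. Sec61b, a subunit of the channel through which proteins enter the ER, had 0.49, 0.62, 1.16 and 0.80, all above 0, and a mean of 0.77 ± 0.29 (adjusted p = 0.380). Ero1b, an oxidase that recharges the disulfide isomerases, stood at 0.62 ± 0.17 (adjusted p = 0.495), and Sec61a1 and Serp1 stood at 0.49 ± 0.19 and 0.58 ± 0.24. The lowest in that list were Nploc4 at -0.59 ± 0.67 and Edem3 at -0.49 ± 1.23.

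Among 25 other cytosolic chaperones and co-chaperones, 10 means lay above 0 and 15 below, with a median of -0.08. Fkbp5, an HSP90 co-chaperone of steroid receptors and a glucocorticoid-inducible gene, had -1.08, -1.77, -0.78 and -1.44, far below 0 on every array, with a mean of -1.27 ± 0.43, or 2.41-fold lower (adjusted p = 0.128). The HSP90 co-chaperone p23, encoded by Ptges3, stood at -0.55 ± 0.21 and Chordc1 at -0.42 ± 0.08, both with an unadjusted p under 0.05. The highest were Cryab at 0.79 ± 1.10, with 2.42 on array 3, and Bag2 at 0.27 ± 0.32. The 8 subunits of the cytosolic chaperonin TRiC had a median of -0.10, from -0.34 for Tcp1 and -0.25 for Cct2 to 0.01 for Cct4 and 0.33 for Cct8.

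Of 11 other mitochondrial chaperones and proteases, 1 mean lay above 0 and 10 below, with a median of -0.17. Grpel2, a nucleotide exchange factor of mitochondrial HSP70, had -2.0, -1.52, -0.05 and -1.62, low on every array except array 3, with a mean of -1.30 ± 0.86 (adjusted p = 0.386). Dnaja3, a mitochondrial J protein, stood at -0.55 ± 0.26 (unadjusted p = 0.0250 by limma), and the protease subunit gene Clpx at -0.57 ± 0.83. The highest were Trap1, the mitochondrial HSP90, at 0.05 ± 0.25 and Afg3l2 at -0.01 ± 0.50.

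Among 6 ER membrane sensors and their proteases, Creb3l3, a liver-enriched membrane-bound transcription factor, had -1.17, -1.06, -0.80 and -0.92. These lay in a narrow band below 0 with a mean of -0.99 ± 0.16, or 1.98-fold lower (adjusted p = 0.135). Creb3 stood at -0.29 ± 0.34, Atf6b at 0.10 ± 0.60 and Creb3l2 at 0.59 ± 0.72.

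Targets of ATF4 and CHOP lay on both sides of 0. Of 14 genes, 6 means lay above 0 and 8 below, with a median of -0.03. At an unadjusted p under 0.05 stood 1 gene above 0 (Atf3) and 3 below (Atf5, Cebpb and Slc3a2), against 3.1% and 3.55% of all genes. Atf5, a transcription factor of the same pathway, had -0.64, -1.07, -0.91 and -1.16, all below 0, with a mean of -0.94 ± 0.23 (adjusted p = 0.188). Slc3a2, which encodes the heavy chain of amino acid transporters, stood at -0.52 ± 0.41, and Cebpb, a transcription factor of the liver, at -0.50 ± 0.16. Atf3 was above 0 on every array at 0.65 ± 0.50 (adjusted p = 0.684), and Phgdh, an enzyme of serine synthesis, at 0.48 ± 0.37.

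**Figure D4:**
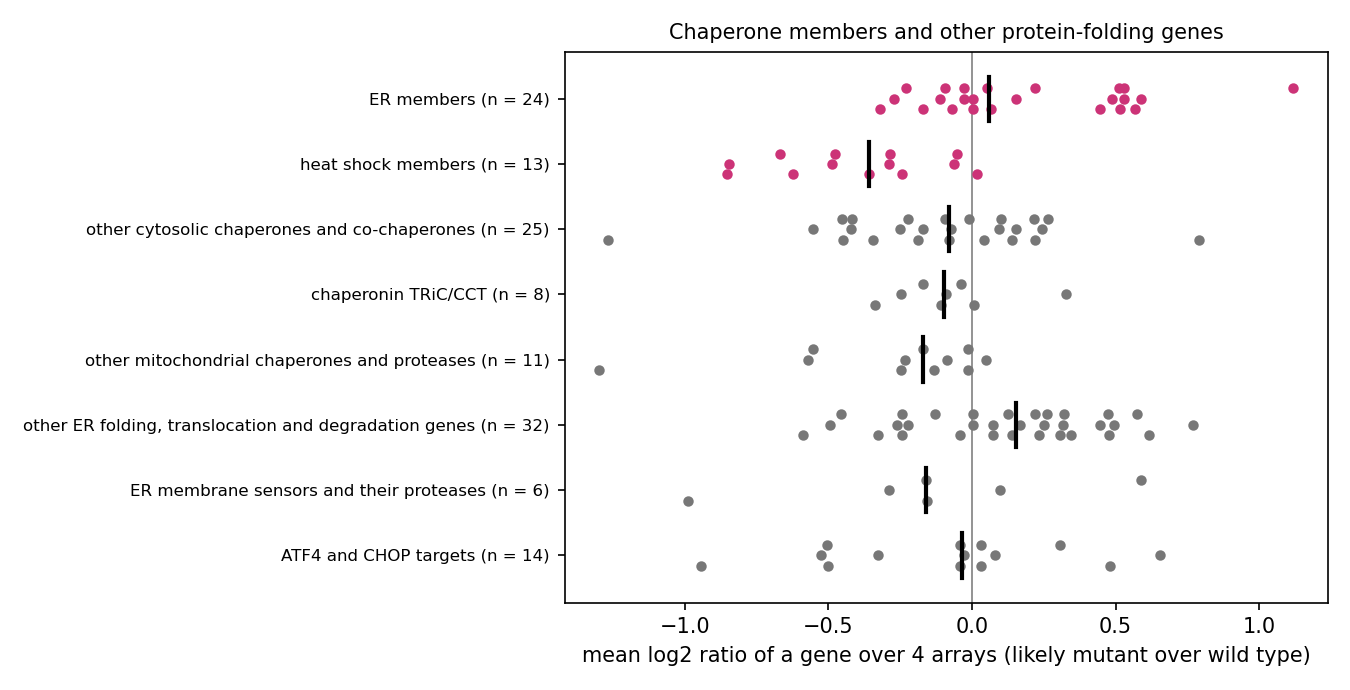
Mean log2 ratio over 4 arrays of each gene (points) with the median of its list (black bar) for the ER and heat shock members (magenta) and the 6 lists of other genes of protein folding and its stress response (grey). The median of the ER members is 0.06 and that of the heat shock members -0.36, and the other ER folding genes have a median of 0.15.

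Markers of other cells were read from 10 lists with 45 of 50 genes measured. Those of plasma cells and pancreatic acinar cells, which are rich in ER, had means over genes from -0.65 to 0.15 and from -0.44 to 0.40 on the 4 arrays. In either list 0 of 4 measured genes had an unadjusted p under 0.05, against 6.64% of all genes in either direction. With 4 genes in a list, a count of 0 says little. Those of red blood cells lay above 0, from 0.72 to 1.39 on the 4 arrays, and Alas2 at 2.45 ± 0.48 was the single marker past the threshold (adjusted p = 0.0324). Means over the 4 measured hepatocyte markers ran from 0.31 to 0.80, but the genes differed. Ass1 stood at 1.19 and Ttr at 0.97, whereas Alb stood at 0.01 and Apoa1 at -0.10. Alb had 0.86 and 0.81 on arrays 1 and 2, and -0.75 and -0.89 on arrays 3 and 4. Means over bile duct markers ran from -0.52 on array 1 to 0.58 on array 3. Averaged over arrays, markers of lymphocytes stood at 0.21, neutrophils at 0.00, Kupffer cells at -0.05, endothelial cells at -0.13 and stellate cells at -0.19. The part of cell makeup in the chaperone ratios was not tested.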

How the data were processed

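Total liver RNA was compared on 4 two-colour arrays (Agilent labelling protocol, per the labels). The deposited values are log2 ratios, 1 for each of 43379 probes and each array. The submitters' processing notes name limma without a version, and no source used here gives the background correction, normalization, filters or log base; log2 is read from the range of the values (-8.54 to 7.54) and from limma's usual scale. Probes with exactly 1 gene symbol in the platform annotation (33653) were averaged per gene, which gave 19087 genes, and 56 probes with several symbols and 9670 with none were left out. The test per gene was that of limma 3.58.1, run in R 4.3.3 (intercept only, two-sided, default eBayes prior with 3.63 degrees of freedom) with Benjamini-Hochberg adjustment over all genes and a threshold of 0.05. Signal intensities were not used here, so the number of arrays limits the precision and probes near background cannot be told. The fit was tested on simulated data.

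The members, gene lists and tests were chosen with earlier results of these data known. Values in full are given for the 5 members of largest absolute mean in either compartment, for members with an unadjusted p under 0.05 and for Hspa5, Xbp1, Atf4, Ddit3 and Hspa1a. Of each other list, the 2 highest and 2 lowest genes are named. Sec61a1, Serp1, Chordc1, Dnaja3 and Cebpb were added after their values were seen, for an unadjusted p under 0.05; Ero1b and 3 other genes were matched by a synonym. Alternatives were the signs of arrays 3 and 4 turned, the median over probes, scaling to the same spread, a running median over 11 x 11 spots subtracted (the layout had 85 columns), a random block for the wild-type animal, a dye coefficient, a robust prior and leaving out each array. Ends of protein sequences are not analysed here.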

Additional observations from a re-analysis of the deposited data

Results flagged for a closer look

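The gap between 1 array and its nearest neighbour took up most of the spread of the 4 values in 1 of 37 members and in 2 of 24 other listed genes examined. Chance gives such a gap in about 1 of 20 groups. The 24 genes were those with the 2 highest and 2 lowest means of each list. A single far array can place a gene there, so that rate does not apply to them. Manf stood at -0.45 on array 1 and at 0.81 to 1.04 on the others. Bag2 stood at -0.21 on array 2 and at 0.37 to 0.47 on the others, and Cryab at 2.42 on array 3 and at -0.01 to 0.38 on the others. The means of the ER genes, of the heat shock genes and their difference had no such array.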

How the results depend on the processing

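The number of members past the adjusted threshold was 0 under all 11 alternatives, and the lowest adjusted p of a member was 0.0608, with a random block for the wild-type animal (consensus correlation -0.37). Turning arrays 3 and 4 gave 0 genes past the threshold (1518 at an unadjusted p under 0.05), 1 member at an unadjusted p under 0.05 (Dnajc3), a heat shock mean of -0.10, an ER mean of -0.23 and a difference of -0.13, and 21 of 37 members changed sign; which orientation holds was not tested. Under the other alternatives the ER mean stayed above 0, the heat shock mean below 0 and the difference between 0.50 and 0.73. Over all genes, the count past the threshold was 47, against 16 with arrays scaled to the same spread and 122 with the spatial trend subtracted, and the cause was not tested. The count was 194 with the animal as a block. In that fit the means were unchanged, and a negative correlation lowers their standard errors, so its smaller p-values add no evidence. Leaving out an array, which lowers the degrees of freedom, gave 0 to 34 genes. The count was 0 when array 2 or array 4 was omitted (940 and 926 genes at unadjusted p under 0.05), 9 when array 3 was, and 34 when array 1 was. The members at an unadjusted p under 0.05 were then 3 to 11, against 10 with all arrays. Each ratio pairs a mutant with a wild-type mouse on the same array, so the test on the ratios keeps that pairing. The arrays form 1 group of ratios, and no further pairing was used.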
